A study of Homo sapiens with 12 samples.

Results

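Markers used to recognise breast cancer stem cells were examined at the RNA level in 2 triple-negative breast cancer cell lines in which the ERK5 pathway had been altered. The 8 genes were CD44, CD24, ALDH1A1, ALDH1A3, PROCR, PROM1, THY1 and ABCG2, taken by gene name from the 32152 genes of the deposited table. They are the surface proteins, enzymes and transporter by which such cells are usually sorted, and were chosen with earlier results of these data known. RNA was sequenced from 12 libraries, 2 for each of 6 groups. The lines were MDA-MB-231 and Hs-578T, both established. For each, the groups were unmodified parental cells, cells labelled ERK5-ko, in which CRISPR/Cas9 guides were aimed at MAPK7, the gene of ERK5, and cells labelled MEK5DD, which express MEK5, the upstream kinase of ERK5, in a permanently active version. All cultures were sampled at 70% confluence.

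The groups have limits as models. The MDA-MB-231 cells labelled ERK5-ko descend from the single clone that survived sorting, and which of the Hs-578T clones was sequenced is not given in the sources used here, nor is how the MEK5DD cells were made. The passage labels were 29 and 30 for MDA-MB-231 parental cells, 7 and 8 for ERK5-ko and 10 and 11 for MEK5DD. In Hs-578T they were 83 and 84 for parental cells, and 8 and 9 for both ERK5-ko and MEK5DD. The paper gives, for the cells from which the ERK5-ko lines were made, passages above these ERK5-ko labels. The ERK5-ko labels are therefore not counts on the parental scale. Passage and label cannot be told apart in any comparison with parental cells. The Hs-578T libraries labelled ERK5-ko and MEK5DD carry the same passage labels, which does not show equal time in culture. The labels do not say that replicates were separate cultures, so p values measure the spread between these libraries only.

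The genes mark cells by different routes. CD44 is the cell surface receptor for hyaluronan and CD24 is a small heavily glycosylated surface protein, and cells high in CD44 and low in CD24 form the classical breast cancer stem cell fraction. ALDH1A1 and ALDH1A3 oxidise retinaldehyde to retinoic acid and are the enzymes most often credited with the activity read by the aldehyde dehydrogenase assay. PROCR, the endothelial protein C receptor, PROM1, a pentaspan membrane glycoprotein, and THY1, a glycolipid-anchored surface protein also found on fibroblasts, are further sorting markers, and ABCG2 exports drugs and the dye that defines the side population. These are descriptions of the proteins in other work, and RNA of a whole culture does not show how many cells carry a protein. In such bulk samples, fewer cells of a type and less RNA per cell cannot be told apart.

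The promoters of ABCG2, ALDH1A3 and PROCR are shown because these 3 genes were higher together in MDA-MB-231 ERK5-ko-labelled libraries. The sequences are from RefSeq on GRCh38.p14, 5′ to 3′ on the strand of the gene, from 250 bases before to 50 bases after an annotated start. Capitals mark matches on either strand to GGGCGG (the GC box), TATAAA (the TATA box) or TGANTCA (the AP-1 site), and neighbouring GC boxes may overlap. RefSeq lists 5 starts for ABCG2, and the 1 nearest to and the 1 farthest from the start of the gene in the deposited table are printed. ALDH1A3 lies at chr15:100879581-100879880, PROCR at chr20:35171822-35172121, and the ABCG2 windows at chr4:88231577-88231876 and chr4:88158590-88158889.
ALDH1A3: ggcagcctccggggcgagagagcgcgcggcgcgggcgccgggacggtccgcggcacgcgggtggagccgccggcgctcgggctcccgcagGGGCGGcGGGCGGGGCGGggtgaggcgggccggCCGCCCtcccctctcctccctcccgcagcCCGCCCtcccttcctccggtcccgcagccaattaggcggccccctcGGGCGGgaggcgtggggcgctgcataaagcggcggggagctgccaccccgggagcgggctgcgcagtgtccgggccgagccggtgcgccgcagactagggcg
PROCR: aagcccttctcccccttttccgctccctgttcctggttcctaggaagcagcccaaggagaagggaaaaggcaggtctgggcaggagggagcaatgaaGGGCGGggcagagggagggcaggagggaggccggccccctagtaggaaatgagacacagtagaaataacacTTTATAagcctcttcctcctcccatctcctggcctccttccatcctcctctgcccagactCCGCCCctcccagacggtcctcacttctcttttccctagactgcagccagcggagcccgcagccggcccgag
ABCG2, upstream start: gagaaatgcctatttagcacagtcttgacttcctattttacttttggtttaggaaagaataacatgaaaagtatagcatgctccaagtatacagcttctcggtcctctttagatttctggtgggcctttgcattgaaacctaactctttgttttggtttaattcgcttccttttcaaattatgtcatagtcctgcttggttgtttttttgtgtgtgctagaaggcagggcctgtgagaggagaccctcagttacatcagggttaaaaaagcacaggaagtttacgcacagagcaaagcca
ABCG2, downstream start: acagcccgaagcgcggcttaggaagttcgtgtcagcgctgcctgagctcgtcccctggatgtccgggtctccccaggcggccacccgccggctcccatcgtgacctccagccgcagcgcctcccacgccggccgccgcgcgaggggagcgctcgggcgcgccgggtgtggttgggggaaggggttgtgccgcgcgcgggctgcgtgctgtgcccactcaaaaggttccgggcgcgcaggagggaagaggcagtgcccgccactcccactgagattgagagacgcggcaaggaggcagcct

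The ALDH1A3 window held 6 GC boxes and 81.7% G or C. The PROCR window held 2 GC boxes and 1 TATA box, with 61.0% G or C. The upstream ABCG2 window, with 40.3% G or C, and the downstream one, with 72.0%, held none of these letters. Among the other 3 ABCG2 windows, 2 overlapping ones held the same pair of GC boxes. No window of the 3 genes held TGANTCA, which 7.71% of the 35116 promoters in the table hold. The GC box is in 45.0% of them and the TATA box in 11.5%. GC boxes were thus in the ALDH1A3 and PROCR windows and in 2 of the 5 for ABCG2, and the TATA box match of PROCR, on the opposite strand, was the only one. The gene-level values do not show which ABCG2 start was used.

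The files gave RPKM values, read counts scaled to the length of the gene model and to the total reads of the library, from libraries of 20248162 to 27791195 reads. Both lines held high KRT18 (141 to 692 RPKM) and VIM (1598 to 4067 RPKM). KRT8 had 595 to 1146 RPKM in MDA-MB-231 and 27.9 to 71.0 RPKM in Hs-578T. ESR1 stayed at or below 0.120 RPKM and PGR at or below 0.348 RPKM, whereas ERBB2 RNA was present at 27.8 to 56.8 RPKM. MAPK7 RNA was in no ERK5-ko-labelled library below the parental values, at 16.3 and 17.8 RPKM in MDA-MB-231 against 13.3 and 14.3 in parental cells, and at 17.8 and 18.1 in Hs-578T against 14 and 16. RNA level therefore does not check the ERK5-ko label, and ERK5-ko is used below only as the name of that label. The paper reports that clones were checked by qRT-PCR and Western blot, with far less ERK5 protein than parental cells in both lines. Protein was not measured in the libraries used here. MAP2K5, the gene of MEK5, had 188 and 184 RPKM in MDA-MB-231 MEK5DD libraries against 12.9 and 13.6 in parental cells. In Hs-578T the same comparison gave 21.3 and 23.8 RPKM against 14.6 and 16.9, a smaller difference than in MDA-MB-231 (difference of log2 fold changes −3.26, standard error 0.144, adjusted p = 4.84e-08, limma).

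The levels of the 8 genes spanned from almost no reads to the most abundant transcripts. Among protein-coding genes, CD44 was in the 109 highest in every library and THY1 in the 67 highest in every Hs-578T library. ALDH1A1 and PROM1 stayed under 0.5 RPKM in every library and were not tested, so 6 of the 8 genes passed the filter on low values, THY1 only through Hs-578T. Between genes, levels depend on the length used. In parental MDA-MB-231 the order of mean RPKM was CD44, PROCR, ALDH1A3, ABCG2 and CD24, and it was the same when reads were divided by the union of GENCODE 29 exons. In parental Hs-578T, THY1 and CD44 came first on both scales, followed by CD24, while ALDH1A3 (47.3 RPKM) stood above PROCR (26.8 RPKM) per gene model and below it per exon union, at 13.0 against 21.2.

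**Figure D1:**
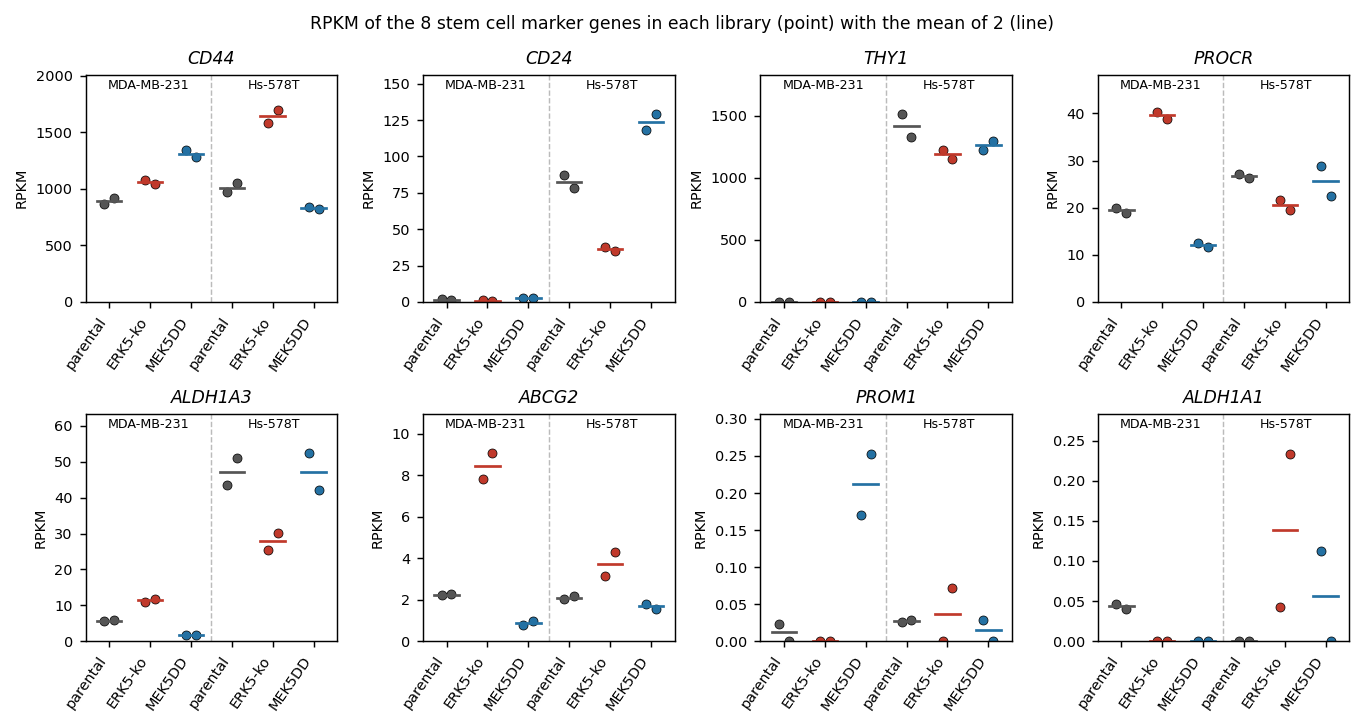
RPKM (linear axes from 0, a separate scale for each gene) of the 8 genes in the 12 libraries, with 2 points a group and a line at their mean. THY1 is at 1152 to 1511 RPKM in Hs-578T and at or below 0.0869 RPKM in MDA-MB-231, and PROCR, ALDH1A3 and ABCG2 run in the order ERK5-ko, parental, MEK5DD in MDA-MB-231.

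CD44 (ENSG00000026508.16, chromosome 11, 35138870 to 35232402 of GRCh38) was abundant in both lines. In MDA-MB-231 it had 862 and 914 RPKM in parental cells, 1076 and 1043 in ERK5-ko-labelled libraries and 1339 and 1276 in MEK5DD libraries. In Hs-578T it had 969 and 1048 RPKM in parental cells, 1581 and 1695 in ERK5-ko-labelled libraries and 838 and 819 in MEK5DD libraries. Within each line the 3 groups did not overlap, but their order differed: MEK5DD libraries were the highest in MDA-MB-231 and the lowest in Hs-578T. Over the 6 groups, the means ran from 1638 ± 80.9 RPKM (SD, n = 2) in Hs-578T ERK5-ko-labelled libraries to 828 ± 13.5 RPKM (SD, n = 2) in Hs-578T MEK5DD libraries, and of neighbouring groups overlap was limited to the parental Hs-578T range and that of ERK5-ko in MDA-MB-231.

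CD24 (ENSG00000272398.5, chromosome 6, 106969831 to 106975627) separated the lines. It had 1.82 and 1.45 RPKM in parental MDA-MB-231 cells and 86.9 and 78.6 RPKM in parental Hs-578T cells. In MDA-MB-231, ERK5-ko-labelled libraries had 1.01 and 0.844 RPKM and MEK5DD libraries 2.78 and 2.61. In Hs-578T, ERK5-ko-labelled libraries had 37.7 and 35.1 RPKM and MEK5DD libraries 118 and 129. In both lines the order was thus MEK5DD, parental, ERK5-ko, with no overlap between any neighbours among the 6 groups. The MDA-MB-231 values rest on 48 to 152 reads a group, and CD24 has near-identical pseudogene copies with which reads may be shared.

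The ratio of CD44 to CD24 RPKM combined these shifts. In MDA-MB-231 it was 475 and 631 in parental libraries, 1061 and 1236 in ERK5-ko-labelled libraries and 482 and 489 in MEK5DD libraries. The parental and MEK5DD ranges overlapped there, and the ERK5-ko-labelled libraries stood above both. In Hs-578T the ratio was 11.2 and 13.3 in parental libraries, 41.9 and 48.3 in ERK5-ko-labelled libraries and 7.10 and 6.35 in MEK5DD libraries, with no overlap. The ratio is of RNA over a culture, not of CD44-high and CD24-low cells.

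**Figure D2:**
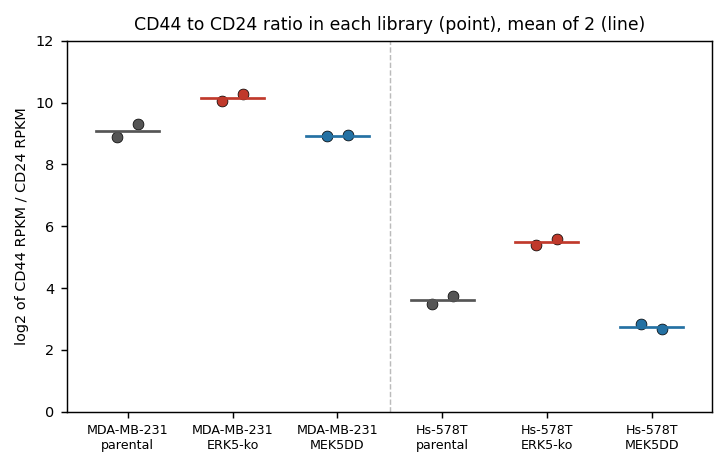
Log2 of the CD44 to CD24 RPKM ratio (vertical axis) in the 12 libraries, with 2 points a group and a line at their mean. Libraries labelled ERK5-ko are highest within each line, at 10.05 and 10.27 in MDA-MB-231 and at 5.39 and 5.59 in Hs-578T.

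ALDH1A3 (ENSG00000184254.16, chromosome 15, 100877714 to 100916626) was the detected enzyme of the pair in both lines. In MDA-MB-231 it had 5.56 and 5.83 RPKM in parental cells, 10.9 and 11.8 in ERK5-ko-labelled libraries and 1.76 and 1.73 in MEK5DD libraries. In Hs-578T it had 43.4 and 51.2 RPKM in parental cells, 25.5 and 30.2 in ERK5-ko-labelled libraries and 52.3 and 42.1 in MEK5DD libraries. All Hs-578T libraries stood above all MDA-MB-231 libraries. Libraries labelled ERK5-ko were the highest of the 3 groups in MDA-MB-231 and the lowest in Hs-578T, where the parental and MEK5DD ranges overlapped.

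ALDH1A1 (ENSG00000165092.12, chromosome 9, 72900662 to 73080442) had 10 reads over the 12 libraries, at most 5 in any, and 0 in 7 libraries. A count of 0 allows up to 3 reads, which is 0.122 to 0.168 RPKM for this gene over the libraries, for counting error only. ALDH1A3 made up at least 99.2% of the summed RPKM of the pair in every library. A difference in ALDH1A1 between groups was not detectable at this depth.

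PROCR (ENSG00000101000.4, chromosome 20, 35172073 to 35177362) followed the order of ALDH1A3 in MDA-MB-231. It had 20.0 and 18.8 RPKM in parental cells, 40.4 and 38.9 in ERK5-ko-labelled libraries and 12.6 and 11.6 in MEK5DD libraries. In Hs-578T it had 27.3 and 26.3 RPKM in parental cells, 21.6 and 19.4 in ERK5-ko-labelled libraries and 28.8 and 22.5 in MEK5DD libraries. The 3 MDA-MB-231 groups were separate and included both the highest and the lowest mean of the 6 groups. In Hs-578T the parental range fell within the MEK5DD range, and ERK5-ko-labelled libraries lay below both.

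ABCG2 (ENSG00000118777.10, chromosome 4, 88090264 to 88231322) was a low transcript with a wide range. In MDA-MB-231 it had 2.24 and 2.26 RPKM in parental cells, 7.83 and 9.07 in ERK5-ko-labelled libraries and 0.783 and 0.966 in MEK5DD libraries. In Hs-578T it had 2.02 and 2.16 RPKM in parental cells, 3.14 and 4.30 in ERK5-ko-labelled libraries and 1.80 and 1.57 in MEK5DD libraries. The order ERK5-ko, parental, MEK5DD held in both lines, with no overlap between any neighbours among the 6 groups. Reads per group ran from 109 in MDA-MB-231 MEK5DD libraries to 963 in MDA-MB-231 ERK5-ko-labelled libraries.

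THY1 (ENSG00000154096.13, chromosome 11, 119417378 to 119424985) was in effect a marker of 1 line. In Hs-578T it had 1511 and 1328 RPKM in parental cells, 1227 and 1152 in ERK5-ko-labelled libraries and 1221 and 1300 in MEK5DD libraries. In MDA-MB-231 it had 2 reads in parental cells, 0 in ERK5-ko-labelled libraries and 3 in MEK5DD libraries, and 4 of the 6 libraries were at 0, where up to 3 reads are allowed, 0.0867 to 0.119 RPKM over all libraries. The Hs-578T parental level was 46547 times that of MDA-MB-231 by reads, with a 95% counting interval of 12885 to 384360. For ERK5-ko-labelled libraries, THY1 was at least 23499-fold higher in Hs-578T, against 3 reads over the MDA-MB-231 group. Fibroblast and mural markers moved with THY1 between the lines: the summed RPKM of PDGFRB, DCN, ACTA2 and LUM was 976 to 1700 in Hs-578T and 6.17 to 18.6 in MDA-MB-231, where DCN stayed at or below 0.112 RPKM. The part of this list in the THY1 result was not tested.

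PROM1 (ENSG00000007062.11, chromosome 4, 15963076 to 16084378) had 26 reads over the 12 libraries, of which 19 were in the 2 MDA-MB-231 MEK5DD libraries, at 0.170 and 0.253 RPKM. The other 5 groups had 0 to 3 reads each, and 5 libraries had 0. By reads, the MDA-MB-231 MEK5DD level was 19.3 times that of parental cells, with a counting interval of 3.06 to 800.4, and at least 5.81-fold higher than in ERK5-ko-labelled libraries, against 3 reads over the group. Without a filter on low values, the log2 fold change of RPKM + 0.5 was 0.47 (standard error 0.0714, adjusted p = 0.000935, limma), short of the fold threshold used for calls. The level stayed below every tested gene of the set in that line other than THY1. PROM1 shares 6234 bases of its span with FGFBP2 on the same strand, and CD44, ALDH1A3, PROCR and THY1 overlap antisense genes. Whether the counting used strand is not given in the sources used here, so reads of such partners cannot be told apart.

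The first comparison set ERK5-ko-labelled libraries against parental cells. Calls required a Benjamini-Hochberg adjusted p under 0.05 over 13737 tested genes with limma on log2(RPKM + 0.5), and a fold above 1.5 for higher or below 0.5 for lower. In MDA-MB-231, 3 of the 6 tested genes were called higher and 0 lower, where 2.8% of all tested genes were called higher and 1.07% lower. The 6 include THY1, which was at the floor in this line (3 reads or fewer a group) and could not be called in it. ABCG2 rose 3.76-fold by mean RPKM (log2 fold change 1.70, standard error 0.144, adjusted p = 2.5e-05). PROCR rose 2.04-fold (log2 1.01, standard error 0.116, adjusted p = 0.000203) and ALDH1A3 rose 1.99-fold (log2 0.93, standard error 0.129, adjusted p = 0.000639). CD24 had a log2 fold change of −0.57 with an adjusted p of 0.0060 by limma, short of the fold threshold. CD44 had a log2 fold change of 0.25 (95% interval 0.03 to 0.48, adjusted p = 0.108).

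KRT19 and EPCAM, markers of the luminal lineage, stood in the same order as ALDH1A3, PROCR and ABCG2 in MDA-MB-231. The summed RPKM of EPCAM, KRT19, GATA3 and FOXA1 was 524 to 533 in parental libraries, 781 to 809 in ERK5-ko-labelled libraries and 250 to 264 in MEK5DD libraries, most of it KRT19. The GATA3 ranges of parental and MEK5DD libraries overlapped, and FOXA1 stayed at or below 0.0638 RPKM in this line. The summed fibroblast and mural markers were 17.7 to 18.6 RPKM in parental libraries, 17.5 to 18.1 in ERK5-ko-labelled libraries and 6.17 to 6.22 in MEK5DD libraries. Within that sum PDGFRB had 14.3 and 14.9 RPKM in parental, 11.4 and 11.3 in ERK5-ko-labelled and 2.15 and 1.76 in MEK5DD libraries. ACTA2 had 2.68 and 3.16, 5.86 and 5.50, and 4.06 and 4.16 RPKM in those groups. Their part in the marker results was not tested.

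In Hs-578T, 2 of the 6 tested genes were called higher and 1 lower in ERK5-ko-labelled libraries, against 9.35% and 3.27% of all tested genes. CD44 rose 1.62-fold (log2 fold change 0.70, standard error 0.101, adjusted p = 0.000275, limma), and ABCG2 rose 1.78-fold (log2 0.69, standard error 0.144, adjusted p = 0.00284). The ABCG2 call was lost without ERK5-ko replicate 2, where its log2 fold change was 0.49. CD24 fell to 0.440 of the parental level (log2 −1.17, standard error 0.116, adjusted p = 1.98e-05). ALDH1A3 (log2 −0.75, adjusted p = 0.000871) and PROCR (log2 −0.38, adjusted p = 0.0226) passed the adjusted p of limma without the fold, and THY1 did not pass it (log2 −0.25, adjusted p = 0.087).

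Basal, luminal and stromal markers differed between the same libraries, and not in 1 direction. KRT14, a basal keratin, had 38.7 and 35.7 RPKM in Hs-578T parental cells, 5.20 and 5.88 in ERK5-ko-labelled libraries and 147 and 118 in MEK5DD libraries, the same order as CD24. The summed basal list of KRT5, KRT14 and TP63 was 36.9 to 39.7 RPKM, 6.42 to 7.45 and 119 to 147 in those groups, most of it KRT14, with KRT5 at or below 0.252 RPKM. TP63 did not follow KRT14: it had 0.981 and 1.08 RPKM in parental, 1.11 and 1.44 in ERK5-ko-labelled and 0.212 and 0.558 in MEK5DD libraries. The summed luminal list was 5.45 to 6.21 RPKM in parental, 11.3 to 11.4 in ERK5-ko-labelled and 5.21 to 6.16 in MEK5DD libraries, with GATA3 at 3.77 and 4.76, 9.21 and 9.34, and 4.20 and 4.84 RPKM and KRT19 at or below 0.395. KRT18 had 213 and 141 RPKM in parental and 547 and 596 in ERK5-ko-labelled libraries. KRT8 went the other way, with 50.7 and 46.9 RPKM in parental and 29.7 and 27.9 in ERK5-ko-labelled libraries. DCN was 421 and 372 RPKM in parental cells and 96.3 and 88.1 in ERK5-ko-labelled libraries, while ACTA2 was 157 and 124 against 495 and 457. In the same groups LUM was lower like DCN, at 670 and 576 RPKM against 295 and 281. PDGFRB had 192 and 216 RPKM against 176 and 150. PECAM1, on the endothelial list, had 5.39 and 5.72 RPKM in Hs-578T parental cells, 6.48 and 6.31 in ERK5-ko-labelled and 2.81 and 2.96 in MEK5DD libraries, while VWF stayed at or below 0.214 RPKM and CDH5 at or below 0.0259. The leukocyte marker CD3E stayed at or below 0.0247 RPKM in both lines. CD68, a lysosomal protein on the leukocyte list, had 23.2 to 108 RPKM, and PTPRC, which marks leukocytes, at most 0.396. The part of these lists in the marker results was not tested.

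**Figure D3:**
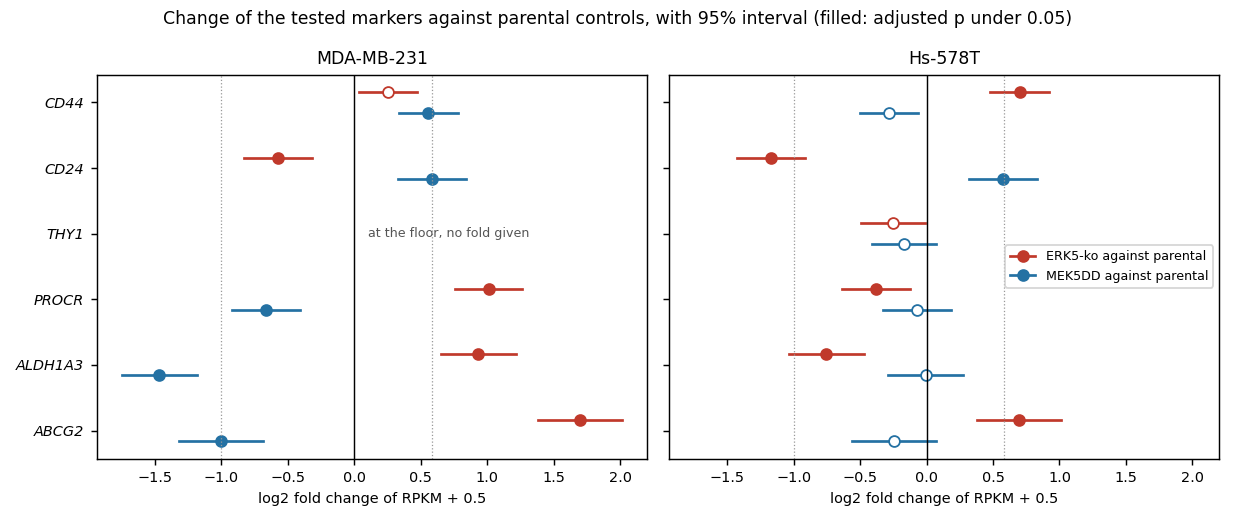
Log2 fold change of RPKM + 0.5 against parental cells (horizontal axis) with its 95% interval for the 6 tested genes, MDA-MB-231 on the left and Hs-578T on the right, red for ERK5-ko-labelled and blue for MEK5DD libraries. Filled points have an adjusted p under 0.05, dotted lines mark folds of 1.5 and 0.5, and the ERK5-ko-labelled intervals of ALDH1A3 and PROCR lie above 0 in MDA-MB-231 and below 0 in Hs-578T.

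The second comparison set MEK5DD libraries against the same parental libraries, which the ERK5-ko comparison also used. In MDA-MB-231, 1 of the 6 tested genes was called higher and 2 lower, against 7.64% and 6.31% of all tested genes. Again THY1, 1 of the 6, was at the floor in this line and could not be called. ALDH1A3 fell to 0.306 of the parental level (log2 fold change −1.47, standard error 0.129, adjusted p = 4.1e-06, limma) and ABCG2 fell to 0.389 (log2 −1.002, standard error 0.144, adjusted p = 0.000185). CD24 rose 1.65-fold (log2 0.59, standard error 0.116, adjusted p = 0.00174). CD44 (log2 0.56, adjusted p = 0.00092) and PROCR (log2 −0.66, adjusted p = 0.000759) passed the adjusted p of limma without the fold. The calls of ABCG2 and CD24 sit at the fold threshold: without MEK5DD replicate 1 both were lost, at −0.91 and 0.55, as they were without parental replicate 2, at −0.996 and 0.46, and with a pseudocount of 1, at −0.79 and 0.49. ABCG2 also missed the fold with median-ratio scaling (−0.95) and quantile normalization (−0.81). CD44 gained the call with median-ratio scaling (0.60), without parental replicate 2 (0.60) and without MEK5DD replicate 2 (0.59).

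In Hs-578T, 0 of the 6 tested genes were called in MEK5DD libraries by limma, where 2.9% of all tested genes were called higher and 1.49% lower. By the adjusted p of limma alone, 1 of the 6 passed, CD24 (log2 fold change 0.57, adjusted p = 0.00497). Of all 13737 tested genes, 884 passed higher and 2329 lower. CD44 did not pass (log2 −0.28, adjusted p = 0.064) except when replicate numbers entered as a block (0.0382). On recovered reads, limma voom called 0 as well. CD24, at 1.49-fold of the parental mean, passed the fold threshold without parental replicate 1 (log2 0.65) or MEK5DD replicate 1 (log2 0.64). The intervals of the others were −0.29 to 0.28 for ALDH1A3, −0.33 to 0.18 for PROCR, −0.41 to 0.07 for THY1 and −0.56 to 0.07 for ABCG2.

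The third comparison set ERK5-ko-labelled libraries against MEK5DD libraries directly, with no parental library among the groups compared. In MDA-MB-231, 3 of the 6 tested genes were called higher and 1 lower, against 17.5% and 6.12% of all tested genes. Here too THY1, 1 of the 6, was at the floor and could not be called. ABCG2 was 9.66-fold higher (log2 2.70, standard error 0.144, adjusted p = 3.57e-08, limma), ALDH1A3 6.51-fold higher (log2 2.40, adjusted p = 3.9e-08) and PROCR 3.28-fold higher (log2 1.67, adjusted p = 3.23e-07) in ERK5-ko-labelled libraries. CD24 fell to 0.345 of the MEK5DD level (log2 −1.16, standard error 0.116, adjusted p = 6.58e-06), a call lost with a pseudocount of 1 (log2 −0.94). CD44 had a log2 difference of −0.30 (adjusted p = 0.0232), short of the fold.

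In Hs-578T, both groups carry the passage labels 8 and 9. Of the 6 tested genes, 2 were called higher and 1 lower, against 15.3% and 3.96% of all tested genes. CD44 was 1.98-fold higher in ERK5-ko-labelled libraries (log2 0.98, standard error 0.101, adjusted p = 1.33e-05, limma) and ABCG2 2.21-fold higher (log2 0.94, standard error 0.144, adjusted p = 0.000271). CD24 fell to 0.295 of the MEK5DD level (log2 −1.75, standard error 0.116, adjusted p = 5.19e-07). ALDH1A3 (log2 −0.75, adjusted p = 0.000637) and PROCR (log2 −0.31, adjusted p = 0.0441) passed the adjusted p without the fold, and the THY1 ranges overlapped.

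Whether an effect differed between the lines was tested as a difference of log2 fold changes, coded Hs-578T minus MDA-MB-231. For the ERK5-ko label against parental cells, 5 of the 6 tested genes passed an adjusted p under 0.05, where 39.8% of all tested genes did. The 1 that did not pass, THY1, was at the floor in MDA-MB-231, so its difference holds in effect only its Hs-578T change. ALDH1A3 (−1.69, standard error 0.183, adjusted p = 4.32e-05, limma) and PROCR (−1.39, standard error 0.164, adjusted p = 7.63e-05) had opposite signs in the lines, positive in MDA-MB-231. ABCG2 (−1.01, adjusted p = 0.00255) was higher in the ERK5-ko-labelled libraries of each line by different amounts. The differences of CD44 (0.44, adjusted p = 0.0279) and CD24 (−0.60, adjusted p = 0.0141) were the smallest of the 5. Both were lost without MDA-MB-231 parental replicate 2, MDA-MB-231 ERK5-ko replicate 1 or Hs-578T ERK5-ko replicate 2, each of which left 3 genes. The CD44 difference was also lost with median-ratio scaling (0.35) and without any 1 of 3 other libraries, and that of CD24 with a pseudocount of 0.1 (−0.43) and with limma voom on recovered reads (−0.39).

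For MEK5DD against parental cells, 4 of the 6 tested genes passed, where 39.6% of all tested genes did. As above, THY1 was at the floor in MDA-MB-231. ALDH1A3 (1.46, standard error 0.183, adjusted p = 9.82e-05, limma) and CD44 (−0.84, standard error 0.142, adjusted p = 0.00078) had the largest differences, followed by ABCG2 (0.76, adjusted p = 0.012) and PROCR (0.59, adjusted p = 0.0142). That of PROCR was lost without MDA-MB-231 parental replicate 1 (0.55) or MEK5DD replicate 2 (0.53), and that of ABCG2 without MDA-MB-231 MEK5DD replicate 1 (0.66). CD24 had a difference of −0.01 with a 95% interval of −0.37 to 0.35. The 2 lines also differed in how far MAP2K5 RNA was raised, and the part of this in the differences was not tested.

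Between the parental lines, 3 of the 6 tested genes were called higher in Hs-578T and 0 lower. THY1, 1 of the 3, passed the filter only through Hs-578T and so had to differ. Of the other 5 genes, 2 were called higher and 0 lower, where 23.5% and 20.7% of all tested genes were. These were CD24, at 50.7-fold by mean RPKM (log2 fold change 5.29, standard error 0.116, adjusted p = 3.46e-12, limma), and ALDH1A3, at 8.30-fold (log2 2.94, standard error 0.129, adjusted p = 1.33e-09). The log2 differences of PROCR (0.46, adjusted p = 0.0036), CD44 (0.18, adjusted p = 0.116) and ABCG2 (−0.09, adjusted p = 0.593) were smaller than the fold threshold. The median of all tested genes was −0.19 here and 0.02 with median-ratio scaling, under which ABCG2 had 0.10 and PROCR, at 0.69, passed the fold. CD44 had −0.13 with quantile normalization.

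Genes that work beside these markers were taken from 6 lists, without the 8 genes themselves. Of their 86 tested genes, 11 were called higher and 2 lower in MDA-MB-231 ERK5-ko-labelled libraries, where 2.8% and 1.07% of all tested genes were. In MDA-MB-231 MEK5DD libraries 7 were called higher (8.14% of the 86) and 20 lower, against 7.64% and 6.31% of all. In Hs-578T the counts were 5 higher and 10 lower for the ERK5-ko label, against 9.35% and 3.27% of all, and 4 higher and 4 lower for MEK5DD, against 2.9% and 1.49%. The medians of all tested genes in these comparisons were −0.04, −0.01, 0.01 and −0.08, in that order. These shares and medians of all tested genes also apply to the counts and medians of each list below.

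Of 15 other tested aldehyde dehydrogenases, 2 were called higher in MDA-MB-231 ERK5-ko-labelled libraries, against 2.8% of all tested genes. They were ALDH3A2 (log2 fold change 0.78) and ALDH1A2 (0.75, adjusted p = 0.0474, limma). ALDH1A2 was low and its replicates disagreed, at 1.42 and 0.573 RPKM against 0.408 and 0.303 in parental libraries. In MDA-MB-231 MEK5DD libraries 3 were called lower, among them ALDH2, the mitochondrial acetaldehyde enzyme (−2.19, from 29.5 to 6.10 RPKM), and ALDH3B1 (−1.38), and ALDH1A2 was called higher (1.09). Of all tested genes, 6.31% were called lower and 7.64% higher there. In Hs-578T only ALDH3B1 was called, lower in ERK5-ko-labelled libraries (−1.39). The list medians were 0.12 and −0.17 in MDA-MB-231 and −0.08 and −0.08 in Hs-578T, for ERK5-ko and MEK5DD.

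The retinoic acid list, with 14 tested genes, holds the enzymes before and after the ALDH1A step and the receptors. DHRS3, which reduces retinaldehyde to retinol, had opposite calls in MDA-MB-231, higher in ERK5-ko-labelled libraries (1.26) and lower in MEK5DD libraries (−1.60), from the same parental mean of 2.25 RPKM. CRABP2, a carrier of retinoic acid, was called higher in the former (0.62). In MEK5DD libraries, RDH10 (0.95) and CYP26B1 (0.92) were called higher and 3 genes lower, including the retinoid-responsive RARRES3 (−3.31). In Hs-578T, 4 genes were called lower in ERK5-ko-labelled libraries, against 3.27% of all tested genes, led by TGM2 (−2.43). In MEK5DD libraries of that line 0 genes of the list were called, where 2.9% of all were called higher and 1.49% lower. The list medians for ERK5-ko and MEK5DD were −0.01 and −0.11 in MDA-MB-231 and −0.45 and −0.11 in Hs-578T.

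Among 17 tested hyaluronan genes and partners of CD44, HAS2, the hyaluronan synthase, was called higher in MEK5DD libraries of both lines (3.56 for MDA-MB-231, 1.02 for Hs-578T) and in Hs-578T ERK5-ko-labelled libraries (0.98). CEMIP, a hyaluronan-degrading protein, had a mean of 51.9 RPKM in parental MDA-MB-231 cells, 87.4 in ERK5-ko-labelled libraries (0.74) and 1.91 in MEK5DD libraries (−4.45). HMMR, a hyaluronan receptor of dividing cells, was called lower in MDA-MB-231 ERK5-ko-labelled libraries (−1.01) and in Hs-578T MEK5DD libraries (−1.24). ESRP2, a splicing regulator of CD44, was called lower in MDA-MB-231 MEK5DD libraries (−2.21), and ESRP1 in Hs-578T MEK5DD libraries (−1.29). The gene-level table does not separate the splice forms of CD44. The list medians for ERK5-ko and MEK5DD were −0.0011 and −0.06 in MDA-MB-231 and 0.20 and −0.12 in Hs-578T. The CD44 ligand SPP1 was called higher (1.14) and MMP14, a CD44 sheddase, lower (−1.14) in Hs-578T ERK5-ko-labelled libraries, and TMEM2, a hyaluronidase, was called higher in MEK5DD libraries of both lines (1.43 and 0.64). For ERK5-ko and MEK5DD, the list had 1 gene up with 1 down and 3 up with 2 down in MDA-MB-231. The Hs-578T counts were 2 up with 1 down and 2 up with 2 down. Of all tested genes, the shares in MDA-MB-231 were 2.8% up with 1.07% down and 7.64% up with 6.31% down. In Hs-578T those shares were 9.35% with 3.27% and 2.9% with 1.49%.

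Of 10 tested genes of the protein C and thrombin pathway around PROCR, 3 were called higher in MDA-MB-231 ERK5-ko-labelled libraries and 4 lower in MEK5DD libraries, with 0 in the other direction. Of all tested genes, 2.8% were called higher and 1.07% lower for ERK5-ko, and 7.64% higher and 6.31% lower for MEK5DD. TFPI2, a protease inhibitor, was called in both (1.41 and −1.84), F3, the tissue factor that starts coagulation, was called higher in the former (1.27, from 336 to 814 RPKM), and THBD, the thrombomodulin partner of PROCR in activating protein C, was called lower in the latter (−1.69). F3 was also called higher in Hs-578T ERK5-ko-labelled libraries (1.16), where PROC was called lower (−1.22). In Hs-578T MEK5DD libraries F2RL2 was called lower (−1.71) and TFPI2 higher (0.79, at 0.566 RPKM). The list medians for ERK5-ko and MEK5DD were 0.28 and −0.66 in MDA-MB-231 and 0.14 and −0.03 in Hs-578T.

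Of 10 other tested drug efflux transporters, ABCC3 was called higher in MDA-MB-231 ERK5-ko-labelled libraries (0.85) and lower in MDA-MB-231 MEK5DD libraries (−2.40) and Hs-578T ERK5-ko-labelled libraries (−2.68). ABCG1, which exports cholesterol, was called lower in MDA-MB-231 MEK5DD libraries (−3.16), and ABCB1, the P-glycoprotein, was called higher in Hs-578T ERK5-ko-labelled libraries (0.92, from 0.635 to 1.63 RPKM). ABCC3 thus had the signs of ALDH1A3 in these 3 comparisons, whereas ABCG2 was higher in the ERK5-ko-labelled libraries of each line. The list had 0 calls in Hs-578T MEK5DD libraries. Its medians for ERK5-ko and MEK5DD were −0.02 and −0.37 in MDA-MB-231 and −0.07 and −0.13 in Hs-578T.

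Of 20 other tested stem and progenitor genes, 2 were called higher and 1 lower in MDA-MB-231 ERK5-ko-labelled libraries, and 1 higher and 6 lower in MEK5DD libraries. The shares of all tested genes were 2.8% and 1.07% for ERK5-ko and 7.64% and 6.31% for MEK5DD. CXCR4, a chemokine receptor, was called lower in both (−1.48 and −3.08). BMPR1B (0.79) and PROM2, a relative of PROM1 (0.63), were called higher in ERK5-ko-labelled libraries, and DCLK1 (1.31) higher and NES (−1.58) lower in MEK5DD libraries. In Hs-578T ERK5-ko-labelled libraries, SOX9, a transcription factor of progenitor cells, was called higher (0.78), and the R-spondin receptors LGR5 (−1.20) and LGR6 (−1.01) lower. In Hs-578T MEK5DD libraries, LGR5 was called lower (−1.53) and LGR6 higher (1.03). The medians of these genes were −0.10 and −0.27 for ERK5-ko and MEK5DD in MDA-MB-231, and 0.06 and −0.06 in Hs-578T. 

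**Figure D4:**
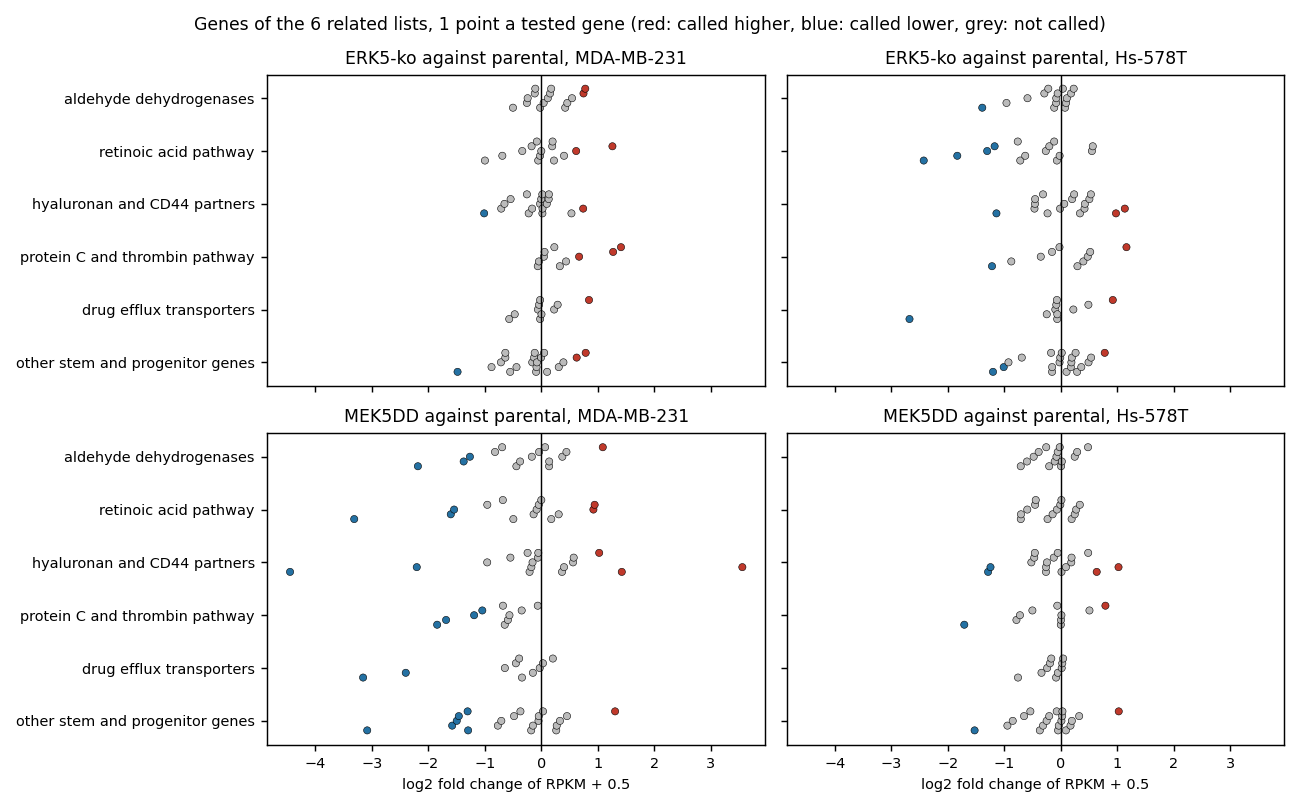
Log2 fold change of RPKM + 0.5 against parental cells (horizontal axis) of the 86 tested genes of 6 lists (rows), 1 panel a comparison, red for called higher, blue for called lower and grey for not called. In MDA-MB-231 the called points number 11 higher and 2 lower for ERK5-ko and 7 higher and 20 lower for MEK5DD.

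The genes with patterns most like each marker were named by Pearson's r of log2(RPKM + 0.5) over the 12 libraries after the mean of each line was taken out, as a description, since the libraries come in 6 groups. ALDH1A3 was most like VIPR1 (r = 0.994) and ACSS2 (0.990). PROCR was most like TPD52L1 (0.981) and THBS2 (0.978), ABCG2 like PPFIBP2 (0.979) and ZNF467 (0.978), and CD24 like PSPH (0.978) and MKNK2 (0.973). For CD44 they were PDDC1 (0.959) and SRPR (0.959). THY1 had the weakest best match, JUNB (0.825), followed by TUT1 (0.823). Because THY1 was at the floor in MDA-MB-231, its r rests almost wholly on the Hs-578T libraries and is not comparable with the others.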

How the data were processed

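The 12 RNA-seq libraries of 2 cell lines were grouped by the line and label given for each sample, 2 libraries a group. Per the labels, the kit for library preparation kept strand information. The authors deposited RPKM values. The submitters' processing notes name bcl2fastq, Trimmomatic 0.32, TopHat2 2.1.1, R 3.3.1, DESeq2 1.12.4 and GRCh38. The counting tool is not given in the sources used here.

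Whole reads (tolerance 0.01 of a read) and library totals were recovered from the RPKM steps for all 32152 genes. With totals shifted by up to 1%, this worked for 0 of 500 genes. The gene-model lengths so recovered follow the mean GENCODE 29 transcript length (median ratio 0.996 over 14554 genes) and not the exon union, of which the 1016 bases of CD44 are 10.2%. Levels between genes depend on this and folds of a gene do not.

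Protein-coding genes were kept if 2 or more libraries reached an RPKM of 0.5, which left 13737, and were fitted as 6 group means of log2(RPKM + 0.5) with limma 3.58.1 in R 4.3.3 (variance trend, 6 residual degrees of freedom). This understates the change of low genes. Adjustment of p values followed Benjamini and Hochberg, and calls also required a fold above 1.5 or below 0.5, except in differences between lines. On data simulated for ERK5-ko against parental in MDA-MB-231 (13321 genes), 93.3% of 195 changed genes were called. All planted changes were well beyond the fold thresholds, the spread was a set value and the lines did not differ. The share therefore does not apply to changes near the thresholds, as for several genes called here. With 2 against 2 libraries an exact permutation test cannot go below p = 0.333, so none was used. A group with 3 reads or fewer was taken as at the floor, and counting intervals (95%) cover counting error only.

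Same-numbered replicates deviated together (r = 0.107 to 0.541 over the 6 pairs of groups within lines), so the numbers were taken to pair the libraries. Standard errors, intervals and adjusted p values come from the fit without this block unless stated. The fit with it is given where it changes a side of the threshold. Other alternatives changed the pseudocount, filter, scaling, libraries, gene types and fold thresholds, or used limma voom on recovered reads.

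All 8 genes were described, with MAPK7 and MAP2K5 as checks. Of the 6 related lists the text names, per comparison, up to 2 called genes from the top and 2 from the bottom of the range of changes, and for each marker the 2 genes most like it. Of the genes this rule names, 1 is not reported here. The genes, lists and tests were chosen with earlier results of these data known. Genes named singly from the cell type lists were chosen after their values were seen. RefSeq promoters were matched by symbol for 7 of the 8 genes, not for THY1. Values were tabulated in Python 3.11.15 with pandas 2.3.3 and numpy 2.4.6, intervals came from scipy 1.17.1 and plots from matplotlib 3.10.9.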

Additional observations from a re-analysis of the deposited data

Results flagged for a closer look

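The effects of the ERK5-ko and MEK5DD labels differed between the lines for 5 and 4 of the 6 tested genes by a test of the difference itself (limma, adjusted p under 0.05), coded Hs-578T minus MDA-MB-231 in log2 units. For libraries labelled ERK5-ko the differences were −1.69 for ALDH1A3, −1.39 for PROCR, −1.01 for ABCG2, −0.60 for CD24 and 0.44 for CD44. For MEK5DD they were 1.46 for ALDH1A3, −0.84 for CD44, 0.76 for ABCG2 and 0.59 for PROCR. Shares of 39.8% and 39.6% of all tested genes passed the same tests. One limit is that THY1, 1 of the 6 tested genes, was at the floor in MDA-MB-231, so no effect could be measured for it there. Both sets of differences use the same parental libraries.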

How the results depend on the processing

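Over 48 values of single genes and 702 alternatives, 652 kept their direction and side of the threshold, 25 lost the threshold, 9 gained it and 16 changed sign. With no fold threshold, 5 genes passed instead of 3 for ERK5-ko against parental in Hs-578T. Of all 13737 tested genes, 2706 passed higher and 2707 lower there. For MEK5DD against parental in MDA-MB-231 it was 5 instead of 3 (2410 higher and 3263 lower of all). For MEK5DD against parental in Hs-578T it was 1 instead of 0 (884 and 2329 of all). For ERK5-ko against MEK5DD in Hs-578T it was 5 instead of 3 (4224 and 2642 of all). These rises come with fewer conditions being set. Also added were CD24 for ERK5-ko against parental in MDA-MB-231, CD44 for ERK5-ko against MEK5DD in MDA-MB-231 and PROCR between parental lines. A pseudocount of 1 left 1 call for MEK5DD in MDA-MB-231, and median-ratio scaling and quantile normalization each gave 1 call, CD24, for MEK5DD in Hs-578T. Leaving out 1 library gave 1 to 4 calls for MEK5DD in MDA-MB-231, 0 to 1 for MEK5DD in Hs-578T and 3 to 5 genes for the ERK5-ko difference between lines.

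All 16 changes of sign were in values that did not pass the test. For MEK5DD in Hs-578T, ALDH1A3 turned to 0.084 with median-ratio scaling and 0.072 with quantile normalization and ran from −0.16 to 0.15 when 1 library was left out, and PROCR turned to 0.018 and 0.038 and ran from −0.25 to 0.10. THY1 turned to 0.10 with quantile normalization for ERK5-ko against MEK5DD in Hs-578T. Between parental lines, CD44 turned to −0.13 with quantile normalization and ABCG2 to 0.10 with median-ratio scaling. The difference between lines of CD24 under MEK5DD turned to 0.080 with a pseudocount of 1 and 0.060 with median-ratio scaling, and ran from −0.14 to 0.11 when 1 library was left out. The cause was not tested.

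The replicate block changed 0 of 54 calls and moved 1 adjusted p across the threshold, that of CD44 for MEK5DD in Hs-578T (0.0382). Over all tested genes, the share of calls that were higher was 54.7% for MEK5DD in MDA-MB-231 and 65.7% with quantile normalization, 66.1% and 77.7% for MEK5DD in Hs-578T, and 53.1% between parental lines against 65.2% with median-ratio scaling. Depth limits ALDH1A1 and PROM1, and CD24 in MDA-MB-231.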
